A study of Saccharomyces cerevisiae with 4 samples.

Results

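The genes of hexose uptake and glucose sensing in the budding yeast Saccharomyces cerevisiae were the transporter genes HXT1 to HXT7, the galactose transporter gene GAL2 and the sensor genes SNF3 and RGT2. They were taken by gene name from a table of 7130 rows, which held all 10 of them, and all 10 passed the filter of a mean of at least 1 FPKM that left 6892 rows for testing. FPKM scales a row's fragments by its length in kilobases and by the library's mapped fragments in units of 1e6, so levels can be compared between genes. The 4 libraries were made from total RNA depleted of ribosomal RNA. Of these, 2 came from cells labelled Asr1-RING, in which the RING domain of Asr1 is mutated, and 2 from cells labelled wild type (WT). All cultures grew in enriched medium and were taken in log phase, near an optical density of 0.8. The sources used here do not give the strain background, the carbon source or the exact change in the RING. Asr1 is a ubiquitin ligase of the RING-finger kind, and the question is which transcripts differ in level when its RING is mutated.

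Yeast takes up glucose by facilitated diffusion through a family of related carriers in the plasma membrane, each suited to a range of glucose concentrations. The membrane proteins Snf3 and Rgt2 resemble the carriers but act as sensors: when glucose binds, they trigger the breakdown of Mth1 and Std1, which otherwise help the repressor Rgt1 to silence the HXT genes. A second pathway, through the Snf1 kinase and the repressor Mig1, lowers the expression of high-affinity carriers when glucose is plentiful. These are background facts and not results of these data.

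The carriers are similar in sequence, which bears on how their reads can be assigned. In the RefSeq sequences of build R64 the coding sequences of HXT6 and HXT7 differed at 3 of 1713 bases, and 95.1% of the 50-base windows of each were found exactly in another gene, namely in the other copy or in HXT3. The differences, T1632C, G1666A and T1677C, count from 1 at the start codon and give the base of HXT6 before the position and that of HXT7 after it. The stretch of coding bases 1617 to 1692 that holds all 3 is shown because it is the part of the coding sequence by which reads of HXT6 and HXT7 could be told apart, with the differing bases in capitals.
HXT6: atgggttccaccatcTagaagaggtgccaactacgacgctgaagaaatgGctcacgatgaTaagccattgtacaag
HXT7: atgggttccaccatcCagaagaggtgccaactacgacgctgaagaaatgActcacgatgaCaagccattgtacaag
The 600 bases before the start codons of HXT6 and HXT7 were 54.9% identical in an alignment, with an unbroken identical run of 84 bases next to the start codon. Among the others, 14.9% of the 50-base windows of HXT3, 4.99% of those of HXT1, 4.05% of those of HXT5 and 2.50% of those of HXT4 recurred in another gene. HXT2, GAL2, SNF3 and RGT2 shared no such window with any coding sequence, so their values are free of this uncertainty at that length. The sources used here do not give the read length.

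The stretches before the start codons of HXT2, HXT3 and HXT4 are shown because HXT2 was the member that passed the test, HXT3 was the most abundant, and HXT4 differed most between the mutant libraries. Each is the 300 bases, among the 600 before the start codon, with the most matches to the motifs of Rgt1 and Mig1, read 5′ to 3′ on the strand of the gene. Capitals mark the matches on either strand. They are in R64 at chrXIII:287499-287798 on the plus strand (bases 580 to 281 before the start codon of HXT2), at chrIV:1164803-1165102 on the minus strand (442 to 143 before that of HXT3) and at chrVIII:288978-289277 on the minus strand (466 to 167 before that of HXT4).
HXT2: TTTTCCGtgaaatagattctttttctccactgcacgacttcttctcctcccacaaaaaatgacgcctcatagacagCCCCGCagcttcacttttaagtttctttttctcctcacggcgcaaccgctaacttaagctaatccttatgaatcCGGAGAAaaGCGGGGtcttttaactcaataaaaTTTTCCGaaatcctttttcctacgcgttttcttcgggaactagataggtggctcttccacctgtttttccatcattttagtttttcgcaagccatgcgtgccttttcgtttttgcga
HXT3: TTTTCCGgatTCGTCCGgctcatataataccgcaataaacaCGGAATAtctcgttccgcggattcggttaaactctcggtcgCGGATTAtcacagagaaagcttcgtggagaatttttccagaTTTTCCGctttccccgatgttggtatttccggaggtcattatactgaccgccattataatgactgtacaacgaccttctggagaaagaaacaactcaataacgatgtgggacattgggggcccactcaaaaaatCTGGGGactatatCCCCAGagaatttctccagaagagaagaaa
HXT4: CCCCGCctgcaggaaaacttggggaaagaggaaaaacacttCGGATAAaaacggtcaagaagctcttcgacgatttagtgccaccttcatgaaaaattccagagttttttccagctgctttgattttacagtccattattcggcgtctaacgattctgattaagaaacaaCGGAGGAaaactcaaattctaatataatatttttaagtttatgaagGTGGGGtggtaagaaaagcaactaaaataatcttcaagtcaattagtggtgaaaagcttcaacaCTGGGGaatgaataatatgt
The letters CGGANNA, the core bound by Rgt1, occurred 7 times in the 600 bases before HXT3, 4 times before HXT1, 3 times each before HXT2 and HXT5, 2 times each before HXT4 and GAL2, and 1 time before HXT6. Of 6005 windows of the same length before yeast coding sequences, 48.0% held at least 1 match, 15.3% at least 2 and 3.71% at least 3. The letters CCGGGG or CTGGGG or GCGGGG or GTGGGG, the core bound by Mig1, occurred 4 times before HXT4, 3 times before HXT2 and HXT6, and 2 times before HXT1, HXT3, HXT7 and SNF3. At least 1 match stood in 27.8% of all windows, at least 2 in 5.23% and at least 3 in 0.966%. The letters CGGNNNNNNNNNNNCCG, bound by the galactose activator Gal4, occurred 5 times before GAL2 and 2 times before HXT3. At least 1 match stood in 3.50% of all windows and at least 2 in 0.117%. No Rgt1 match of the 10 genes overlapped a Mig1 match, while matches of Rgt1 and Gal4 overlapped before GAL2 and HXT3. RGT2 had no match to any of the 3 motifs in this window. A match describes letters and does not show binding.

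In sacCer2, the build of the deposited table, the carriers form a pair of clusters. HXT7 (YDR342C, IV:1154211-1155923), HXT6 (YDR343C, IV:1159603-1161315) and HXT3 (YDR345C, IV:1162952-1164655) lie within 10445 bp, with 1 other row, YDR344C, between them. HXT4 (YHR092C, VIII:287132-288814), HXT1 (YHR094C, VIII:290916-292628) and HXT5 (YHR096C, VIII:294672-296450) lie within 9319 bp, with the rows AHT1 and YHR095W between them. HXT2 (YMR011W, XIII:288078-289703), GAL2 (YLR081W, XII:290213-291937), SNF3 (YDL194W, IV:111581-114235) and RGT2 (YDL138W, IV:213352-215643) stand apart. None of the 10 rows overlaps another row. The row of HXT4 spans 1683 bp, against a coding length of 1731 bp in R64, and the other 9 have the same length in both.

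The steps between low values of the table gave an estimate of depth, in units of 1e6 fragments, of 43.6 and 45.5 for the Asr1-RING libraries and 47.8 and 41.4 for the WT libraries. At these depths GAL2 rested on about 75.1 to 104 fragments per library, HXT5 on 374 to 618 and HXT2 on 13000 to 40100, and a floor of 3 fragments for a row of 1 kb is 0.0788 to 0.0910 FPKM, by counting error only. The mutated gene ASR1 had 4.99 and 5.39 FPKM in the Asr1-RING libraries and 7.05 and 6.34 FPKM in the WT libraries (limma adjusted p = 0.157), and such levels show nothing of a change inside the coding sequence. The labels do not say whether the libraries of a group are separate cultures, and p-values therefore reflect the spread among these 4 libraries, which may be technical. Means below are of 2 libraries with their SD (n = 2).

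HXT2 was the member called higher in Asr1-RING cells. It encodes a carrier of high affinity that is induced at low glucose. HXT2 had 391.8 and 619.2 FPKM in the Asr1-RING libraries, against 251.6 and 220.4 FPKM in the WT libraries. Both mutant libraries lay above both WT libraries, and they also differed from each other by more than the WT libraries did. The mean was 505.5 ± 160.8 FPKM in Asr1-RING and 236.0 ± 22.0 FPKM in WT, a 2.14-fold higher mean. The log2 difference of HXT2, on the scale log2(FPKM + 1), was 1.06 (SE 0.220, 95% interval 0.52 to 1.61, limma adjusted p = 0.0496). In bulk RNA, a change in all cells and a change in the share of cells that express a gene cannot be told apart.

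The HXT2 call lay at the threshold. Its adjusted p ranged from 0.000941 to 0.231 over 15 alternatives and stayed under 0.05 in 6 of those that kept this threshold. Leaving out WT replicate 1 gave 0.197 and leaving out WT replicate 2 gave 0.231, whereas leaving out Asr1-RING replicate 1 gave 0.000941 and replicate 2 gave 0.0128. A group left with 1 library adds no spread of its own. These fits take the spread of the other group's pair, moderated towards the trend over all tested rows. They assume that the lone library varies alike. The SE of HXT2, so moderated, was 0.120 without Asr1-RING replicate 1 and 0.292 without WT replicate 1, beside 0.220 with all 4. With the replicate number as a block the adjusted p was 0.0619. The log2 difference of HXT2 ranged from 0.73 to 1.39 over the 15. As the groups did not overlap, only centring on a common median and quantile normalization could have reversed its sign, and neither did.

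Across the 10 genes, 1 was called higher and 0 were called lower at an adjusted p under 0.05, and 9 were not called. At an unadjusted p under 0.05, 2 members were higher, HXT2 and HXT5, and 0 were lower. Over all 6892 tested rows, 1.89% were called higher and 4.95% lower. Among the 6517 of them that are open reading frames (ORFs), as all 10 members are, 1.95% were called higher and 0.921% lower. Of all tested rows, 14.6% and 11.9% had an unadjusted p under 0.05 in those directions. The log2 differences of HXT1 to HXT7 ran from 0.46 to 1.39 without Asr1-RING replicate 1. They ran from 0.05 to 0.73 without Asr1-RING replicate 2. The groups did not overlap for any of the 10: both mutant libraries lay above both WT libraries for HXT1 to HXT7 and SNF3, and below them for RGT2 and GAL2. Among all tested rows, 33.0% were separated upwards and 27.2% downwards in this way. The median log2 difference of the 10 members was 0.34, beside 0.02 over all tested rows and 0.03 over the tested ORF rows. Leaving out Asr1-RING replicate 2 gave 0.09 and leaving out replicate 1 gave 0.47, and the members' median level varied between replicates with an SD of 0.33 on the same log2 scale.

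**Figure D1:**
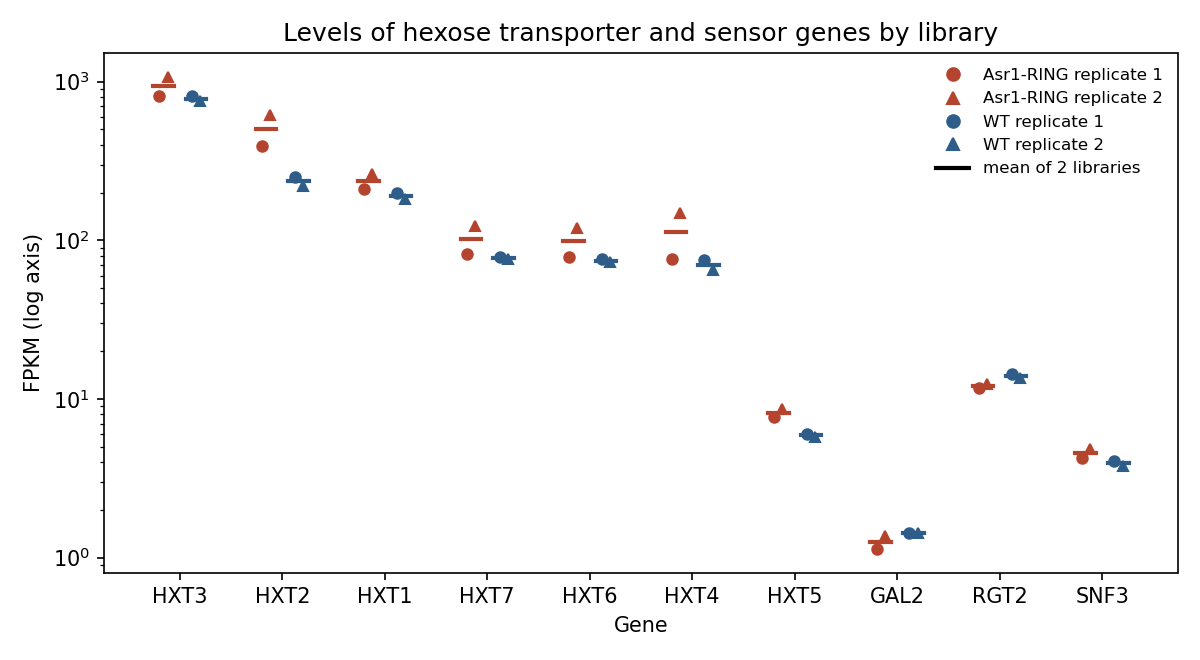
Level of each gene in FPKM on a log axis, with Asr1-RING libraries in red to the left of WT libraries in blue, circles for replicate 1, triangles for replicate 2 and bars for the mean of 2 libraries. HXT2 shows the widest gap between the groups, and HXT4, HXT6 and HXT7 have replicate 1 of the mutant close to WT and replicate 2 above it.

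**Figure D2:**
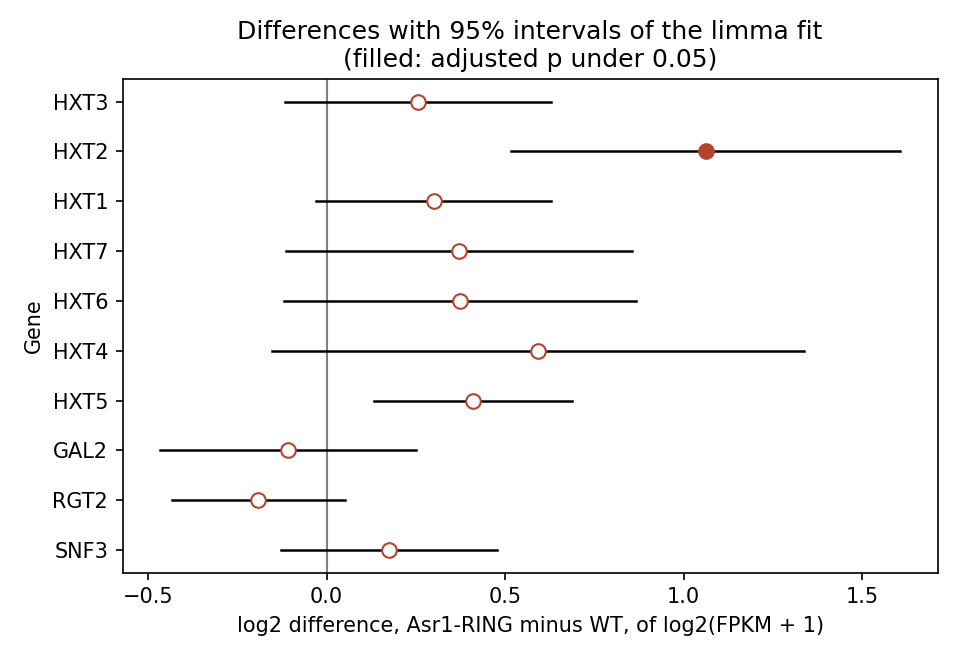
Log2 difference between Asr1-RING and WT, on the scale log2(FPKM + 1), for each gene with the 95% interval of the limma fit, the filled point marking an adjusted p under 0.05. The interval leaves out 0 for HXT2 and HXT5, and HXT2 is the filled point.

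HXT1 and HXT3 encode the carriers of low affinity that serve at high glucose. HXT3 had the highest level of the 10 genes in every library, with 812.0 and 1076 FPKM in the Asr1-RING libraries and 808.9 and 757.4 FPKM in the WT libraries. Replicate 1 of the mutant was within 1% of WT replicate 1, and the log2 difference of 0.26 (95% interval -0.12 to 0.63, limma adjusted p = 0.333) did not pass. After quantile normalization it was 0.70 (limma adjusted p = 0.0291), a value that did pass. HXT1 had 209.6 and 260.8 FPKM in the Asr1-RING libraries and 199.0 and 180.9 FPKM in the WT libraries. Its log2 difference was 0.30 (95% interval -0.03 to 0.63, limma adjusted p = 0.219), and replicate 2 of the mutant was the high library. Without Asr1-RING replicate 1 the differences of HXT3 and HXT1 were both 0.46, and without Asr1-RING replicate 2 they were 0.05 and 0.14.

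HXT4, of intermediate affinity, and HXT6 and HXT7, of high affinity, had a like pattern. HXT4 had 76.1 and 148.0 FPKM in the Asr1-RING libraries and 75.4 and 65.2 FPKM in the WT libraries. Replicate 2 of the mutant held 1.95 times the level of replicate 1, the widest such gap of the 10 genes. The log2 difference of HXT4 was 0.59 (95% interval -0.15 to 1.34, limma adjusted p = 0.273). It was 1.07 without Asr1-RING replicate 1 (limma adjusted p = 0.00235) and 0.12 without Asr1-RING replicate 2 (limma adjusted p = 0.614).

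HXT7 had 81.7 and 123.5 FPKM in the Asr1-RING libraries and 79.0 and 75.9 FPKM in the WT libraries. HXT6 had 78.1 and 119.2 FPKM in the Asr1-RING libraries and 75.8 and 72.7 FPKM in the WT libraries. Here again replicate 1 of the mutant lay close to WT and replicate 2 lay above it. HXT6 stood at 0.957 and 0.965 of the level of HXT7 in the Asr1-RING libraries and at 0.959 and 0.958 in the WT libraries, and with coding sequences that differ at 3 bases, as printed above, how much each copy contributed is uncertain. The log2 differences of HXT6 and HXT7 were both 0.37 (95% intervals -0.12 to 0.87 and -0.11 to 0.86, limma adjusted p = 0.288 and 0.286). Summed into 1 row, the pair had a log2 difference of 0.37 (limma adjusted p = 0.286). With Asr1-RING replicate 1 left out, the differences of HXT6 and HXT7 were 0.68 and 0.67. Without Asr1-RING replicate 2 they were 0.07 and 0.08.

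HXT5 encodes a carrier that is known from slow growth and stress. It had 7.70 and 8.62 FPKM in the Asr1-RING libraries and 6.04 and 5.73 FPKM in the WT libraries. The mutant libraries were close to each other, and both were above WT. The mean was 8.16 ± 0.653 FPKM in Asr1-RING and 5.89 ± 0.222 FPKM in WT. The log2 difference of HXT5 was 0.41 (SE 0.112, 95% interval 0.13 to 0.69, limma adjusted p = 0.0900) and missed the threshold, with 0.34 without Asr1-RING replicate 2 (limma adjusted p = 0.187) and 0.48 without Asr1-RING replicate 1 (limma adjusted p = 0.0444).

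The sensors were among the lowest rows of the 10. SNF3, the sensor of low glucose, had 4.27 and 4.86 FPKM in the Asr1-RING libraries and 4.04 and 3.80 FPKM in the WT libraries. Its log2 difference was 0.18 (95% interval -0.13 to 0.48, limma adjusted p = 0.400). RGT2, the sensor of high glucose, had 11.8 and 12.5 FPKM in the Asr1-RING libraries and 14.3 and 13.6 FPKM in the WT libraries. It was 1 of the 2 members with lower values in the mutant, with a log2 difference of -0.19 (95% interval -0.43 to 0.05, limma adjusted p = 0.277). The other was GAL2, which carries galactose and also glucose, with 1.13 and 1.38 FPKM in the Asr1-RING libraries and 1.43 in both WT libraries. Its log2 difference was -0.11 (95% interval -0.47 to 0.25, limma adjusted p = 0.673). Counting error alone gives an SD of up to 11.5% for GAL2 at these depths.

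The order of the levels was nearly the same in every library. HXT3 stood above HXT2, HXT2 above HXT1, and RGT2, HXT5, SNF3 and GAL2 took the 7th to 10th place in all 4. HXT7, HXT6 and HXT4 held the places between HXT1 and RGT2. HXT4 was 4th in Asr1-RING replicate 2 and 6th in the other 3 libraries, so the order of these 3 genes does not hold beyond the spread between libraries. In WT the level of HXT2 was above that of HXT1 in both libraries, although their values lay closer (251.6 and 220.4 FPKM for HXT2, 199.0 and 180.9 FPKM for HXT1) than in the mutant.

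The mutant libraries differed from each other at several of these genes. Asr1-RING replicate 2 was above replicate 1 for all 10 genes, and at least 1.5 times as high for HXT2, HXT4, HXT6 and HXT7. Of the 6517 tested ORF rows, 48.3% were higher in replicate 2 and 1.93% reached 1.5 times. In WT, replicate 2 was below replicate 1 for 9 of the 10 genes, with GAL2 as the exception, as it was for 66.6% of ORF rows, and the ratio of replicate 2 to replicate 1 was 0.864 for HXT4 and 0.876 for HXT2. Replicate 1 of the mutant alone stood at 1.66 times the WT mean for HXT2 and at 1.31 times for HXT5, against 1.04 to 1.10 times for HXT1, HXT3, HXT4, HXT6 and HXT7. Replicate 2 of the mutant stood at 2.62 times the WT mean for HXT2 and at 2.11 times for HXT4. It stood at 1.37 to 1.61 times for HXT1, HXT3, HXT5, HXT6 and HXT7.

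**Figure D3:**
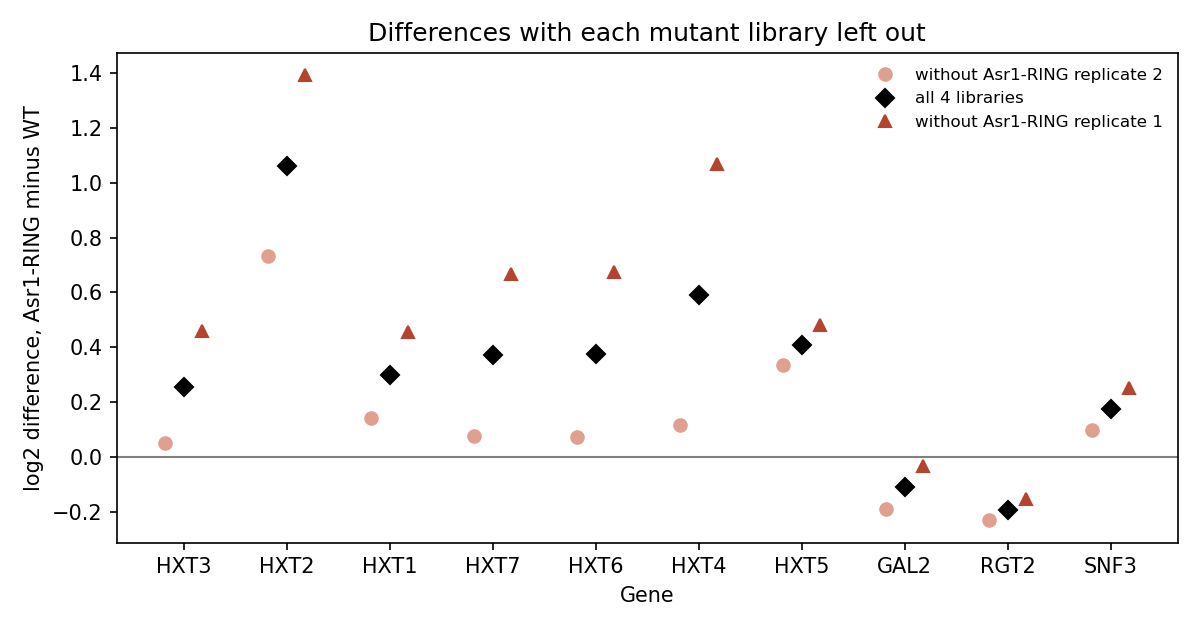
Log2 difference of each gene, Asr1-RING minus WT, with all 4 libraries (black), without Asr1-RING replicate 2 (pale circles) and without Asr1-RING replicate 1 (red triangles). HXT2 stays above 0.7 in each, while HXT4 lies at 0.12 without replicate 2 and at 1.07 without replicate 1.

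The make-up of carrier mRNA within a library does not change when a whole library is scaled by 1 factor. Quantile normalization moves the genes of a library unequally, and the shares were not computed after it. HXT2 made up 23.6% and 26.3% of the summed FPKM of HXT1 to HXT7 in the Asr1-RING libraries and 16.8% and 15.99% in the WT libraries. The share of HXT2 was thus higher in both mutant libraries, with means of 24.97% ± 1.87 in Asr1-RING and 16.4% ± 0.584 in WT. HXT3 made up 49.0% and 45.7% in the Asr1-RING libraries and 54.1% and 55.0% in the WT libraries, and HXT1 made up 12.6% and 11.1% in the Asr1-RING libraries and 13.3% and 13.1% in the WT libraries. Both shares were lower in the mutant without overlap, although the FPKM of both genes was not. Since the shares are parts of 1 sum, a higher share of HXT2 by itself lowers the others. The lower shares of HXT3 and HXT1 are therefore not results separate from that of HXT2. The shares of HXT4 and HXT5 overlapped between the groups, and HXT6 and HXT7 together made up 9.65% and 10.3% in the Asr1-RING libraries and 10.3% and 10.8% in the WT libraries. The exact two-sided permutation p of the HXT2 share was 0.333, the smallest that 2 against 2 libraries allow. The sum itself was 1657 and 2356 FPKM in the Asr1-RING libraries and 1496 and 1378 FPKM in the WT libraries.

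**Figure D4:**
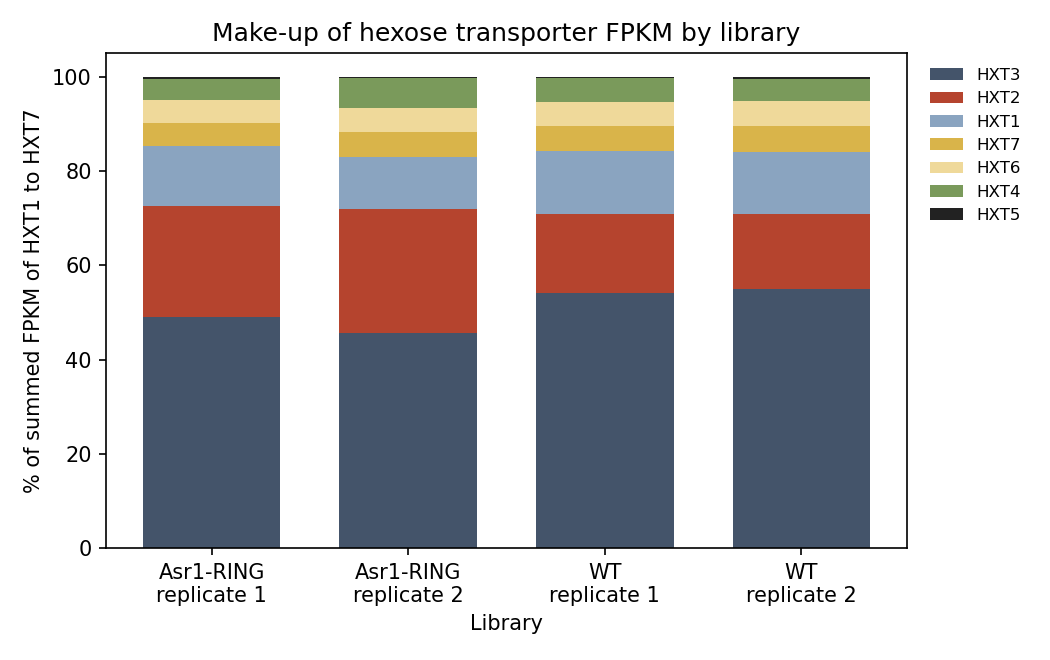
Share of each gene in the summed FPKM of HXT1 to HXT7, in percent, for each of the 4 libraries. The HXT2 part is 23.6% and 26.3% in the Asr1-RING libraries and 16.8% and 15.99% in the WT libraries, while the HXT3 part is smaller in both Asr1-RING libraries than in WT.

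The other genes of the family were at low levels and none was called. HXT8 to HXT17 gave 8 tested rows of 10, with 0 higher and 0 lower at the threshold of limma, 0 at an unadjusted p under 0.05 and a median log2 difference of 0.09. HXT10 and HXT14 had mean levels under 1 FPKM and were not tested. HXT15, the tested row with the smallest p, had 1.06 and 1.72 FPKM in the Asr1-RING libraries and 0.902 and 0.930 FPKM in the WT libraries (log2 difference 0.31, limma adjusted p = 0.340).

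Among 8 genes of the pathway between the sensors and the HXT genes, 0 were called higher or lower by limma and 1 reached an unadjusted p under 0.05, and the list's median log2 difference was 0.00038. The 1 gene was MTH1, whose product works with the repressor Rgt1. MTH1 had 10.8 and 19.2 FPKM in the Asr1-RING libraries and 6.69 and 6.84 FPKM in the WT libraries. Both mutant libraries lay above WT, with replicate 2 the higher, as for HXT2. The log2 difference of MTH1 was 0.99 (95% interval 0.38 to 1.60, SE 0.248, limma adjusted p = 0.0749). The difference was 1.38 without Asr1-RING replicate 1 (limma adjusted p = 0.000941) and 0.60 with replicate 2 of the mutant left out (limma adjusted p = 0.0335), where the SE, from the close WT pair alone, was 0.120 and 0.123. It did not pass without WT replicate 1 (limma adjusted p = 0.384) or WT replicate 2 (limma adjusted p = 0.274).

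MTH1 was also among the 3 ORFs whose 4 values were most like those of HXT2, measured as the distance between log2(FPKM + 1) values after taking off each gene's own mean. The closest was YOR062C at a distance of 0.138, with 10.4 and 17.2 FPKM in the Asr1-RING libraries and 6.58 and 6.25 FPKM in the WT libraries. MTH1 followed at 0.188 and YOR338W at 0.197. YOR338W had 14.9 and 19.98 FPKM in the Asr1-RING libraries and 8.88 and 7.26 FPKM in the WT libraries. Over 4 libraries this likeness is a description.

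In the glucose repression pathway of Snf1, Mig1 and their partners, 13 genes were tested and 0 were called by limma, with 3 higher and 1 lower at an unadjusted p under 0.05 and a median log2 difference of 0.05. MIG2, a zinc-finger repressor that acts with Mig1, had the smallest p. MIG2 had 34.2 and 49.7 FPKM in the Asr1-RING libraries and 24.9 and 22.3 FPKM in the WT libraries (log2 difference 0.78, SE 0.184, limma adjusted p = 0.0644). The groups did not overlap. The log2 difference of MIG2 was 0.86 with WT replicate 1 left out and 0.71 with WT replicate 2 left out. It was 1.04 and 0.52 without Asr1-RING replicate 1 and 2.

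Glucose is also sensed through cAMP and protein kinase A, by the receptor Gpr1 and the Ras proteins. Of 13 genes of this branch 1 was called higher and 0 lower, with 3 higher and 1 lower at an unadjusted p under 0.05. The median log2 difference was 0.05. TPK2, a catalytic subunit of protein kinase A, rose with 22.7 and 26.6 FPKM in the Asr1-RING libraries against 15.2 and 17.1 FPKM in the WT libraries. The log2 difference of TPK2 was 0.58 (95% interval 0.28 to 0.87, limma adjusted p = 0.0496). This call too lay at the threshold. It ended in 9 of 15 alternatives, among them those without WT replicate 1 (limma adjusted p = 0.388), WT replicate 2 (limma adjusted p = 0.19) or Asr1-RING replicate 2 (limma adjusted p = 0.0740).

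Genes of galactose use gave 0 calls among 6 tested, with 2 lower and 0 higher at an unadjusted p under 0.05 and a median log2 difference of -0.06. GAL1, the galactokinase gene, had 5.53 and 6.01 FPKM in the Asr1-RING libraries and 8.06 and 7.42 FPKM in the WT libraries (log2 difference -0.37, limma adjusted p = 0.109). Genes of metabolism that glucose is known to repress gave 0 calls among 12 tested of 13, with 2 higher and 2 lower at an unadjusted p under 0.05 and a median of -0.07. PCK1, which encodes the carboxykinase of gluconeogenesis, had 3.51 and 3.41 FPKM in the Asr1-RING libraries and 2.29 and 2.41 FPKM in the WT libraries (log2 difference 0.41, limma adjusted p = 0.105). The 4 genes of transporter endocytosis gave 0 calls by limma and 0 at an unadjusted p under 0.05, with a median of 0.03. ROG3, an arrestin-related adaptor, had 15.7 and 14.9 FPKM in the Asr1-RING libraries and 18.9 and 17.1 FPKM in the WT libraries (log2 difference -0.22, limma adjusted p = 0.230). In the 7 lists together, 1 of 64 tested genes was called higher and 0 lower, beside 1.89% and 4.95% of all tested rows.

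**Figure D5:**
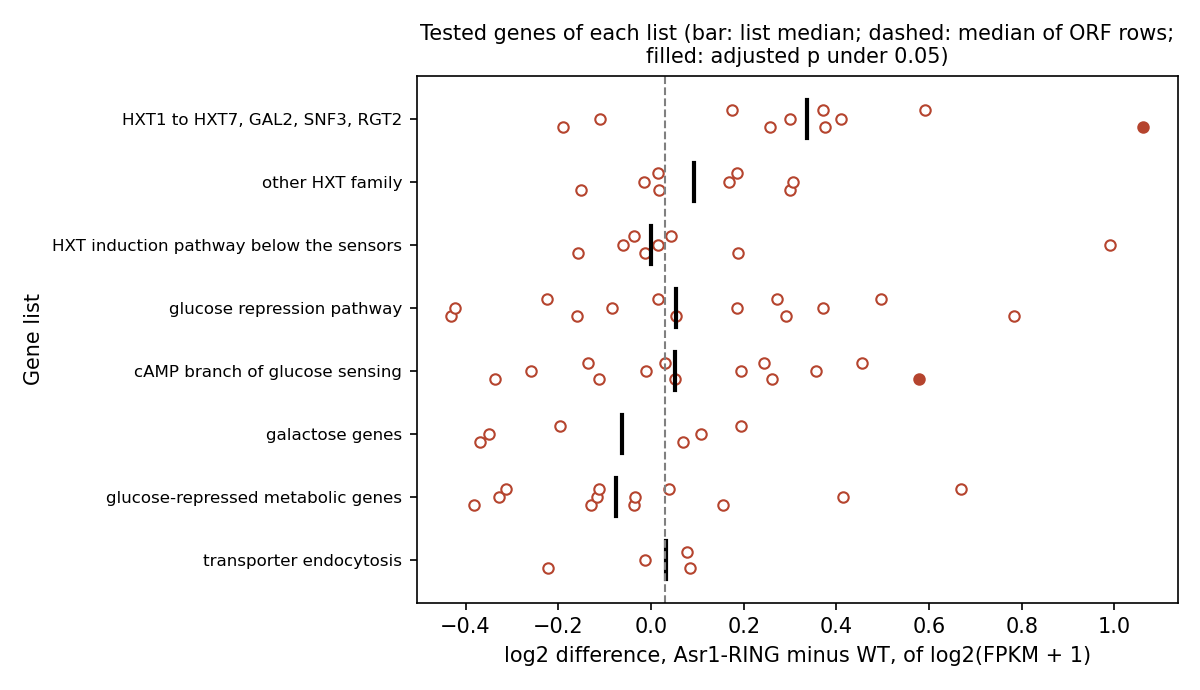
Log2 difference between Asr1-RING and WT for each tested gene of the carrier and sensor set and of 7 further lists, with a black bar at each list's median, a dashed line at the median of ORF rows and filled points at an adjusted p under 0.05. HXT2 and TPK2 are the filled points, and MTH1 at 0.99 and MIG2 at 0.78 are the open points farthest to the right in their lists.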

How the data were processed

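The authors deposited 1 table with an FPKM value per row and library. Per the submitters' processing notes, the genome build was sacCer2 and the tools were TopHat2 and Cufflinks; the sources used here do not give versions, settings or strand handling. Sample titles gave the groups and replicate numbers, and description labels tied each column to its sample, with 0 value columns unused. The table's starts count from 0, since end minus start equals the R64 length for 99.1% of 6048 rows matched by identifier, and are printed here counted from 1.

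Since FPKM is no count, limma 3.58.1 (R 4.3.3) was fitted to log2(FPKM + 1) over the 6892 rows whose mean reached 1 FPKM. The fit used an intensity trend (residual degrees of freedom 2, prior 3.71) and Benjamini-Hochberg adjustment over all of these rows, and calls were made at an adjusted p under 0.05. Folds are ratios of mean FPKM, and log2 differences understate the change of low rows. Depth was estimated as the value at which most of 51 to 64 low ORF rows of 350 to 3000 bp held whole fragments (85.9% to 90.2% of them, within 0.1) once 204 bp were taken off the length.

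The members and lists were chosen with earlier results of these data known. All members, ASR1, the called genes of a list or else the gene with its smallest p, and the 3 ORFs most like the member with the smallest p were named by rule. Sequences are from RefSeq, build R64, looked up by gene identifier with R64's own coordinates, which are not comparable with those of sacCer2, using Biopython 1.88. Alternatives changed the pseudocount (0.1 and 5), the filter (none, or a mean from 10 FPKM upwards), the scaling (a common median, or quantiles) and the moderation (no trend, or robust). Others blocked on replicate number, used ORF rows alone, left out each library, called at an adjusted p under 0.1, or summed HXT6 and HXT7. Python 3.11.15, pandas 2.3.3, numpy 2.4.6 and matplotlib 3.10.9 were also used.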

Additional observations from a re-analysis of the deposited data

How the results depend on the processing

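All 10 members kept the sign of their log2 difference under every alternative that tested them (HXT5, SNF3 and GAL2 were not tested at a mean of at least 10 FPKM). Since the groups did not overlap for any member, only centring and quantile normalization could have reversed a sign. The other alternatives say nothing about the direction. The count of members called lower was 0 in each. The count called higher, 1 with the settings used, was 0 with no filter, with libraries centred on a common median, without a trend, with robust moderation, with the replicate block and with ORF rows only. It was 2 after quantile normalization (HXT2 and HXT3) and 2 at an adjusted p under 0.1 (HXT2 and HXT5), and it ranged from 0 to 7 with each library left out. The median of the members ranged from 0.09 to 0.47, both with a library left out, and the excess of the HXT2 share from 7.24 to 9.88 percentage points, leave-one-out values added after the data were seen. Over all rows, 130 were higher and 341 lower. The higher count was 63 with no filter, 216 at a mean of at least 10 FPKM, 256 with robust moderation, 237 with the replicate block and 449 at an adjusted p under 0.1. Centring gave 70 higher and 447 lower, quantile normalization 307 and 316, and ORF rows only 36 and 23. With each library left out the ranges were 16 to 781 higher and 197 to 553 lower. In the 7 lists, 1 gene was called higher and 0 lower. The higher count was 0 with a pseudocount of 5, no filter, centring, quantile normalization, no trend and ORF rows only, 2 at a mean of at least 10 FPKM and with robust moderation, and 3 at an adjusted p under 0.1, where 1 was lower. It ranged from 0 to 7 with each library left out, and the lower count from 0 to 3. The cause of these changes was not tested, beyond the smaller number of rows or libraries where an alternative removes some. Same-numbered libraries did not deviate together (r = -0.0712 over 6892 rows), and the labels tie them by number alone. Depth limits GAL2 most among the members, with 75.1 to 104 fragments per library.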
